A study of Mus musculus with 21 samples.

Results

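Crypt base stem cell markers were followed in sorted cells of the mouse small intestine. The set is 8 genes, Lgr5, Olfm4, Ascl2, Smoc2, Aqp4, Sox9, Tnfrsf19 and Rgmb, and its members on the array are all probe sets annotated to 1 of these gene symbols alone. They are 8 of 18194 genes with such probe sets, and 23 of 45101 probe sets, of which 20 passed the filter on dim signals. The cells were TdTomato+ Mist1+ cells sorted on the surface protein CD24 into a low fraction (CD24lo) and a high fraction (CD24hi), each profiled on 2 Affymetrix arrays in each of 5 conditions. The conditions were untreated, Lgr5-ablated (titled DT), irradiated with 10 Gy, treated with doxorubicin (spelled doxorubucin in the labels) and expressing NICD, and 1 array of whole intestine, labelled villi, had no replicate. Mist1 is a transcription factor of secretory cells, and doxorubicin is a DNA-damaging drug. No group received DT without ablation, so the effects of agent and ablation cannot be told apart. The labels give no strain, age, alleles, Cre driver, drug dose or time after treatment, do not spell out NICD or DT, and do not say whether the TdTomato label reads current or past Mist1 expression. They also do not say whether replicates came from separate animals, so p-values measure only the spread between these arrays.

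Stem cells at the base of the crypt divide throughout life and renew the intestinal epithelium. Their state depends on Wnt signals, which R-spondins strengthen through receptors of the Lgr family, and on Notch signals from neighbouring secretory cells, while bone morphogenetic protein (BMP) signals rise toward the villus and favour differentiation. The 8 genes stand at different points of this system. Lgr5 is an R-spondin receptor and Rgmb a membrane-bound BMP co-receptor. Ascl2 and Sox9 are transcription factors, both activated by Wnt signalling. Olfm4 and Smoc2 encode secreted proteins, Aqp4 a water channel, and Tnfrsf19 (Troy) a receptor of the tumour necrosis factor family that is itself a Wnt target. Sox9 is also expressed in Paneth and tuft cells, so it is the least restricted of the set.

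The upstream sequences of 3 members are shown because the genes responded differently to irradiation, Olfm4 and Ascl2 being lower in CD24hi cells and Rgmb not passing the test. Each is the 250 bases before the annotated start in RefSeq (GRCm38.p6), 5′ to 3′ in the sense of the gene, with capitals marking the matches found.
Olfm4 (chr14:80000052-80000301, plus strand): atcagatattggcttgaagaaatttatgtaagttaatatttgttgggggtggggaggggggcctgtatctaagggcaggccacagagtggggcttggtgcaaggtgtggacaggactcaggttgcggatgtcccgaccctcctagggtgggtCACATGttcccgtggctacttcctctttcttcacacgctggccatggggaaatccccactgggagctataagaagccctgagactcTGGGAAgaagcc
Ascl2 (chr7:142969265-142969514, minus strand): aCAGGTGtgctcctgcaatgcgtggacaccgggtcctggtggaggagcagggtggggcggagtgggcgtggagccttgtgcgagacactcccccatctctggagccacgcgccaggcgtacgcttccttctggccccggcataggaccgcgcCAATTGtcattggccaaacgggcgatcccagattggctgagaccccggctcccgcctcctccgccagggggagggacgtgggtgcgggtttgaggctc
Rgmb (chr17:15831247-15831496, minus strand): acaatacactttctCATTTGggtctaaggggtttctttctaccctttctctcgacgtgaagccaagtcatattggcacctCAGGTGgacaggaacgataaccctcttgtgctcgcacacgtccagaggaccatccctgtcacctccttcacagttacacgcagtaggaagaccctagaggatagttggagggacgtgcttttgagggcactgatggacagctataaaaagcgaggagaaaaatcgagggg
The motifs searched on both strands were CTTTGA for TCF factors of the Wnt pathway, TGGGAA for the Notch partner RBPJ, and CANNTG, the E-box bound by bHLH factors such as Ascl2 and Mist1. In Olfm4 the match nearest the start was TGGGAA, beginning 12 bases before it, and the other was the E-box CACATG. Ascl2 had the E-boxes CAGGTG and CAATTG, and Rgmb had CATTTG and CAGGTG before the start shown and no match before its 2 other starts. Of 32851 mouse promoters in the same window, 13.8% held the TCF motif, 21.6% the RBPJ motif and 66.2% an E-box, so an E-box match is common. No TCF match fell in these 3 windows, and the 1 match among the members searched, TCAAAG, lay before a start of Tnfrsf19. Aqp4 was left out of the search. Among the rest of the 8 members, 4 matched an entry of the promoter collection, with 7 start sites. In the same build, Lgr5 lies at chr10:115450314-115587780, Smoc2 at chr17:14279490-14404790, Sox9 at chr11:112782210-112787757, and Tnfrsf19 at chr14:60963834-61046855.

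Levels are given as log2(signal + 16), where signal is the authors' array intensity, and differences are on the same scale with their standard error (SE). Every group has 2 arrays. The share of all probe sets with non-overlapping arrays was counted between fractions only. Orders of treated against untreated arrays therefore have no such share. A difference passed the test when its adjusted p in limma, corrected over all 22531 probe sets tested, was below 0.05, and the background share is the percentage of those probe sets that passed in the same direction. Each gene is described by its brightest probe set, and the main disagreeing probe sets are named. Sorted arrays had median signals between 101 and 158. All 6 epithelial markers lay above the array median on every sorted array. All 8 mesenchymal markers lay below it on every sorted array, with summed signals of 108 to 497 against 6309 in whole intestine. Glia also express Aqp4 and Sox9 in brain. Of 5 glial markers on the array, Gfap, S100b and Fabp7 were above the array median on 0 of 20 sorted arrays, Sox10 on 8 and Erbb3 on 20. The control probes of 1 array, replicate 2 of the NICD CD24hi cells, read apart from those of the others, and calls in that group are given without it as well.

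Olfm4, Smoc2, Aqp4, Sox9 and Rgmb were above the array median on all 20 sorted arrays, Ascl2 on 17, Lgr5 on 16 and Tnfrsf19 on 11. Lgr5 had the widest range of the 8, from 4.96 in a doxorubicin CD24lo array to 12.03 in a NICD CD24hi array. By group mean, its highest levels were 12.02 in NICD CD24hi cells, 11.22 in untreated CD24hi cells and 10.74 in irradiated CD24hi cells, and its lowest were 6.32 in irradiated and 5.56 in doxorubicin CD24lo cells. NICD CD24lo cells, at 10.13, lay among the CD24hi groups and their arrays overlapped those of Lgr5-ablated CD24hi cells at 9.91. Smoc2 and Rgmb also had their highest means in NICD CD24hi cells, 12.74 and 12.02, and their lowest in doxorubicin CD24lo cells, 8.29 and 8.66. Olfm4, Aqp4 and Tnfrsf19 were instead highest in untreated CD24hi cells, at 14.31, 11.63 and 8.06, and Aqp4 was lowest in irradiated CD24hi cells at 8.75. Ascl2 was highest in Lgr5-ablated CD24hi cells at 9.88, with arrays overlapping those of untreated CD24hi cells. Sox9 was highest in irradiated CD24hi cells at 11.14. Whole intestine measured 6.37 for Lgr5, 6.44 for Smoc2, 4.67 for Ascl2 and 4.14 for Sox9, the last 3 below every sorted array. Its Olfm4 level of 10.66 lay above irradiated and doxorubicin CD24lo arrays, which ran from 9.17 to 10.33, and just above irradiated CD24hi replicate 1 at 10.64.

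**Figure D1:**
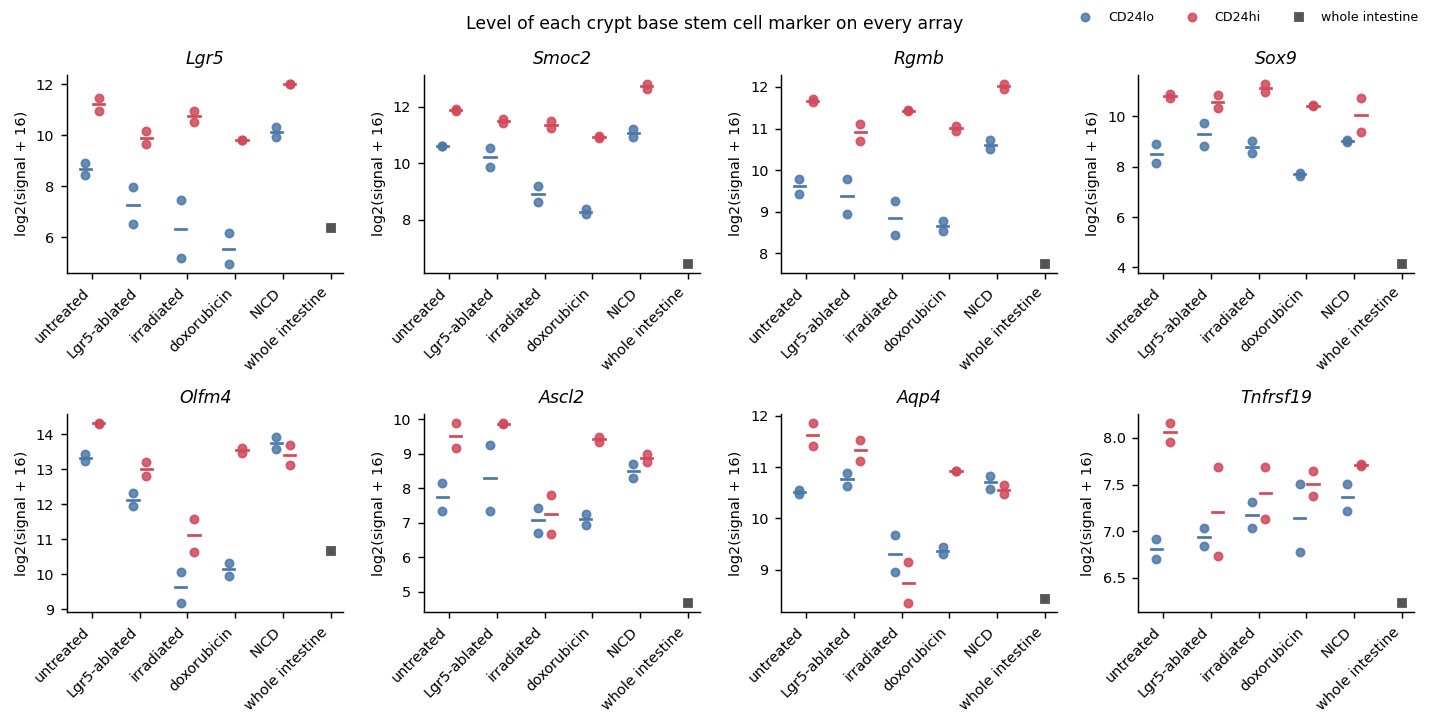
Level of the brightest probe set of each marker, as log2(signal + 16), on every array. Each circle is 1 array (blue CD24lo, red CD24hi), short bars are group means of 2 arrays and the grey square is the single whole intestine array. In irradiated CD24hi cells Olfm4, Ascl2 and Aqp4 drop while Lgr5 stays between 10.52 and 10.96.

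The first question was which fraction carried the stem cell markers. In untreated mice all 8 genes were higher in CD24hi cells, and 19 of 20 probe sets passed against a background share of 7.02% (5.39% were lower). Among the 20, Lgr5 1444519_at and Tnfrsf19 1448147_at met the signal filter only through CD24hi arrays. In this count and those below they are therefore no independent support. Neither is the brightest probe set of its gene. Counted by the brightest probe set of each of the 11854 genes, the background shares were 7.35% higher and 6.7% lower. Lgr5 measured 8.90 and 8.44 in CD24lo and 11.48 and 10.95 in CD24hi arrays, a difference of 2.54 ± 0.55 (adjusted p = 0.00573). Sox9 measured 8.90 and 8.14 against 10.90 and 10.74, a difference of 2.30 ± 0.37 (adjusted p = 0.000548). Rgmb measured 9.80 and 9.44 against 11.70 and 11.63, a difference of 2.04 ± 0.27 (adjusted p = 0.0001). For these genes both CD24hi arrays lay above both CD24lo arrays, as they did for all 8 genes here, where 31.6% of all probe sets showed that order. Ascl2 was higher by 1.77 ± 0.48, Smoc2 by 1.29 ± 0.22, Tnfrsf19 by 1.25 ± 0.34 and Aqp4 by 1.11 ± 0.26. Olfm4 had the smallest difference, 0.98 ± 0.30 (adjusted p = 0.0416), at 13.43 and 13.22 in CD24lo and 14.32 and 14.30 in CD24hi arrays, so it was abundant in both fractions. The 1 probe set that did not pass was Aqp4 1425382_a_at, at 0.70 ± 0.32. Smoc2, Sox9 and Rgmb kept their calls without any 1 array. Lgr5 had adjusted p = 0.0615 without CD24hi replicate 1. Ascl2 had 0.161 without CD24lo replicate 2 and 0.192 without CD24hi replicate 1, and Aqp4 had 0.0686 without CD24lo replicate 1 and 0.123 without CD24hi replicate 1. Olfm4 and Tnfrsf19 lost their calls whichever of the 4 arrays was left out, with adjusted p between 0.106 and 0.165 for Olfm4 and between 0.0515 and 0.132 for Tnfrsf19.

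In the other conditions some markers passed again through their brightest probe set and others did not. That split tests no change between conditions. A change of the CD24hi difference from untreated was called for 0 of 20 probe sets under each treatment. The brightest probe sets of Lgr5, Smoc2 and Rgmb passed in each of the 5 conditions, a pattern shown by 1.41% of probe sets. Lgr5 differed by 2.66 ± 0.55 after Lgr5 ablation, 4.42 ± 0.55 after irradiation, 4.25 ± 0.55 after doxorubicin and 1.89 ± 0.55 with NICD. The CD24lo signals behind the doxorubicin value were dim, at 55.69 and 15.1, as was 1 of those behind the irradiation value, at 20.45. The other irradiated array read 158.4, above its array median of 139.4. Weak signal is not separated from background here. The sizes therefore depend on the constant added, at 4.86 and 3.68 after irradiation and 4.87 and 3.29 after doxorubicin with 1 and 64 in place of 16. The second Lgr5 probe set, 1444519_at, passed in all but ablation, where it gave 1.14 ± 0.37 (adjusted p = 0.082). Smoc2 differed by between 1.29 and 2.64, and Rgmb by between 1.41 and 2.57. Sox9 passed in all but NICD, where it differed by 1.04 ± 0.37 (adjusted p = 0.054, and 0.0138 without the CD24hi replicate that stood apart). Olfm4 did not pass after ablation (0.86 ± 0.30) or with NICD (-0.33 ± 0.30), yet differed by 3.39 ± 0.30 (adjusted p = 2.08e-06) after doxorubicin. Ascl2 had means of 9.88 in CD24hi and 8.31 in CD24lo cells after ablation, without passing. It differed by 2.32 ± 0.48 after doxorubicin but by 0.17 ± 0.48 after irradiation and 0.37 ± 0.48 with NICD, the last 2 short of the threshold. Aqp4 likewise passed after doxorubicin, at 1.55 ± 0.26, and measured -0.57 ± 0.26 after irradiation. Tnfrsf19 passed in untreated mice alone by its brightest probe set, and its probe set 1448147_at also passed after doxorubicin, at 1.96 ± 0.51 (adjusted p = 0.0106). Of the 20 probe sets, 10 passed after ablation, 13 after irradiation, 18 after doxorubicin and 9 with NICD, against background shares of 3.29%, 6.83%, 14.9% and 11.3%. None of the 20 was lower in any of these conditions, against 2.09%, 6.84%, 9.3% and 10.3% of probe sets in the same order. By brightest probe set 4, 5, 7 and 3 of the 8 genes passed, against 3.88%, 7.37%, 16.9% and 13.4% of genes higher and 2.62%, 8.12%, 10.7% and 10.3% lower.

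**Figure D2:**
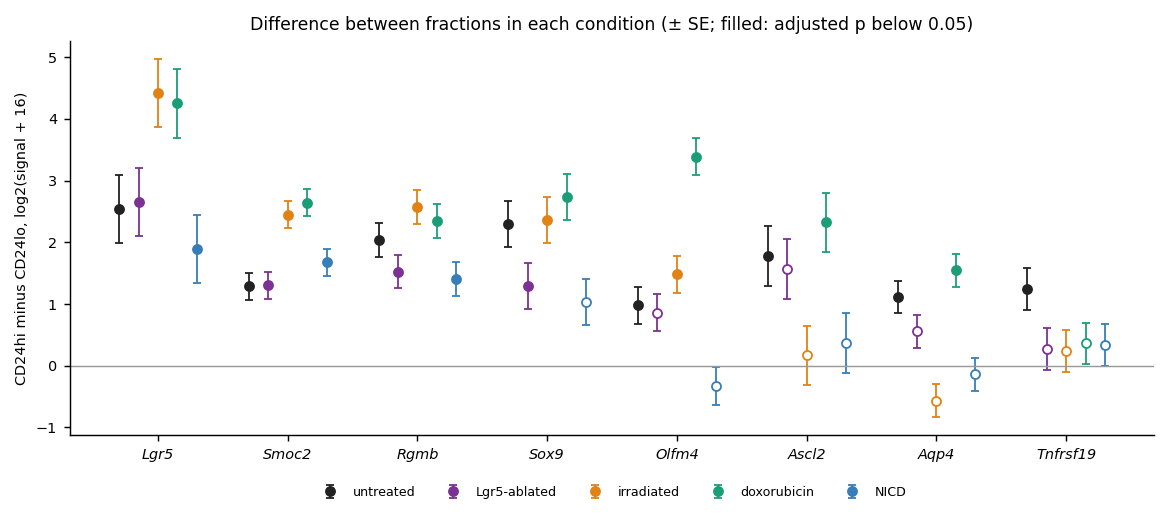
Difference between CD24hi and CD24lo cells for the brightest probe set of each marker in 5 conditions, in log2(signal + 16) ± SE with 2 arrays per group. Filled points had an adjusted p below 0.05. Lgr5, Smoc2 and Rgmb are filled in every condition, and Aqp4, Ascl2 and Olfm4 scatter around 0 in some of them.

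Several of these calls rested on single arrays. Without 1 array, the number of genes passing ran from 0 to 5 after ablation. There Lgr5 had adjusted p = 0.222 without CD24lo replicate 2 and 0.112 without CD24hi replicate 1, Rgmb had 0.0894 and 0.0601 without the same arrays, and Smoc2 had 0.0598 without CD24lo replicate 2. Sox9 after ablation, at 1.30 ± 0.37 (adjusted p = 0.049), lost its call without CD24lo replicate 2 and without either CD24hi array, and Ascl2 gained one (adjusted p = 0.00172) without CD24lo replicate 1. With NICD, Lgr5 had adjusted p between 0.0504 and 0.173 when any 1 of the 4 arrays was left out. After irradiation, Olfm4 had 0.082 without CD24lo replicate 1 and 0.0592 without CD24hi replicate 2, and Aqp4 was lower, at -0.97 (adjusted p = 0.0421), without CD24hi replicate 2. The 7 genes called after doxorubicin kept their calls through the brightest probe set whichever array was left out, while Tnfrsf19 1448147_at had 0.0821 without CD24lo replicate 2 and 0.0794 without CD24hi replicate 2.

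In the average of the 5 conditions all 20 probe sets were higher in CD24hi cells, against a background share of 25.8%. The call of 1 of them, Aqp4 1447745_at at 0.37, was lost in 22 alternatives, among them quantile normalization (adjusted p = 0.184) and 16 of the 20 left-out arrays. The 8 genes had a median difference of 1.57, and the 11854 genes tested had one of 0.07. The difference was 3.15 ± 0.25 for Lgr5 (adjusted p = 2.57e-08), 1.98 ± 0.12 for Rgmb, 1.95 ± 0.17 for Sox9 and 1.87 ± 0.10 for Smoc2. It was 1.28 ± 0.13 for Olfm4, 1.24 ± 0.22 for Ascl2, 0.50 ± 0.12 for Aqp4 and 0.49 ± 0.15 for Tnfrsf19. The 10 CD24hi arrays lay wholly above the 10 CD24lo arrays for 3 probe sets, all of Rgmb (1428429_at, 1428430_at and 1433587_at), an order shown by 2.49% of all probe sets. Markers of other cells moved with the fractions. Summed over 6 of 8 tuft markers on the array, signals ran from 179 to 983 in CD24lo and from 871 to 12340 in CD24hi arrays. Over 8 of 10 Paneth markers they ran from 44290 to 81620 in CD24lo and from 79330 to 221700 in CD24hi arrays, and over 7 of 8 enterocyte markers from 27170 to 107200 in CD24lo and from 13200 to 39890 in CD24hi arrays. Their part in the marker differences was not tested, and in sorted bulk RNA fewer cells of a type and less RNA per cell cannot be told apart.

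Other genes of the crypt base went the same way. Of 18 further stem cell genes tested, 15 were higher and 1 lower in CD24hi cells averaged over conditions, against 27.2% and 19.1% of genes. Among the 18, Slc14a1 met the signal filter only through untreated CD24hi arrays. Msi1, an RNA-binding protein, was higher by 2.17 ± 0.16, Htr4, a serotonin receptor, by 1.22 ± 0.24, and Igfbp4, which binds insulin-like growth factors, by 1.20 ± 0.18. Of 17 Wnt and R-spondin pathway genes, 10 were higher and 0 lower (limma, adjusted). Ephb3, an ephrin receptor needed for Paneth cells to settle at the crypt base, was higher by 3.14 ± 0.19. The Wnt feedback inhibitors Notum, Apcdd1 and Nkd1 were higher by 1.94 ± 0.25, 1.87 ± 0.23 and 1.40 ± 0.12. Notum was dim, with a median signal of 56.34, and lay above the array median on 2 of 20 sorted arrays. The fraction of those arrays was not recorded, so its call is not taken as independent support. The 11 BMP pathway genes ran mostly the other way, 1 higher and 6 lower with a median of -0.36. The BMP target genes Id3 and Id2 were lower, at -0.96 ± 0.15 and -0.92 ± 0.16, as was the ligand Bmp2, at -1.21 ± 0.14, whereas the ligand Bmp7 was higher by 2.42 ± 0.24. Of 10 Notch pathway genes 4 were higher and 1 lower, the largest being Dtx4 at 0.84 ± 0.13. Among 7 proliferation genes only the replication helicase genes Mcm2 and Mcm6 passed, at 0.52 ± 0.12 and 0.30 ± 0.11.

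Irradiation separated the markers within CD24hi cells. Olfm4 fell by 3.20 ± 0.30 (adjusted p = 1.33e-05), from 14.32 and 14.30 to 10.64 and 11.57. Aqp4 fell by 2.88 ± 0.26 (adjusted p = 1.33e-05), from 11.86 and 11.40 to 8.35 and 9.15. Both irradiated arrays lay below both untreated ones for each gene, and the further Aqp4 probe sets 1447745_at and 1425382_a_at fell by 2.30 ± 0.32 and 1.45 ± 0.32. Ascl2 fell by 2.28 ± 0.48 (adjusted p = 0.00973), from 9.90 and 9.16 to 6.69 and 7.81. Its probe set 1460514_s_at, built on the same transcript record, gave the same size, -2.28 ± 0.43. In contrast Lgr5 measured 10.96 and 10.52 after irradiation, overlapping its untreated arrays, a difference of -0.47 ± 0.55. Smoc2 differed by -0.51 ± 0.22, Rgmb by -0.23 ± 0.27 and Sox9 by 0.32 ± 0.37, all short of the threshold. The probe sets of Tnfrsf19 disagreed, 1448147_at falling by 2.04 ± 0.51 (adjusted p = 0.0318) and the brightest giving -0.65 ± 0.34. In all, 7 of 20 probe sets fell, against a background share of 2.81%, and 0 rose, against 0.923%.

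The falls of Olfm4 and of Aqp4 through its brightest probe set and 1447745_at remained without any 1 array. Aqp4 1425382_a_at had adjusted p = 0.15 without untreated replicate 1 and 0.0674 and 0.0815 without irradiated replicate 1 or 2. Ascl2 had adjusted p = 0.15 without untreated replicate 1 and 0.238 without irradiated replicate 1, at -1.91 and -1.72, and Tnfrsf19 1448147_at lost its call whichever of the 4 arrays was left out (adjusted p between 0.0506 and 0.295). Among further stem cell genes 5 fell and 1 rose, against 3.28% and 1.05% of genes, with Slc14a1, a urea transporter, at -3.35 ± 0.52, the vitamin D receptor Vdr at -2.37 ± 0.29 and Igfbp4 at -1.67 ± 0.41. In the Wnt list the receptor Fzd7 and the feedback gene Axin2 fell, by 1.14 ± 0.26 and 1.10 ± 0.23. The receptor Notch2 and the Notch target Nrarp fell by 1.95 ± 0.30 and 1.22 ± 0.29, as did Notch1, 3 of 10 Notch genes. Proliferation genes fell in 6 of 7, with Top2a at -2.13 ± 0.27 and Mki67 at -2.06 ± 0.31. Summed goblet markers ran from 99390 to 112500 in irradiated and from 65450 to 84510 in untreated CD24hi arrays, without overlap, and 3 of 8 were called higher. Tuft markers ran from 871 to 969 and from 1252 to 1871, and Paneth markers, which overlapped, from 95410 to 103400 and from 97350 to 125200. The part of these in the marker changes was not tested.

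In CD24lo cells irradiation was followed by lower Olfm4, which fell by 3.71 ± 0.30 (adjusted p = 4.03e-06) from 13.43 and 13.22 to 9.17 and 10.07. Lgr5 fell by 2.35 ± 0.55 (adjusted p = 0.0258), from 8.90 and 8.44 to 5.19 and 7.45, the 2 irradiated arrays lying far apart and 1 of them at the dim signal of 20.45. Its size was -2.75 and -1.74 with constants of 1 and 64, and it lost its call in a fit to the compared arrays alone (adjusted p = 0.0771). Smoc2 fell by 1.68 ± 0.22 (adjusted p = 0.000492) and Aqp4 by 1.20 ± 0.26 (adjusted p = 0.0184). Ascl2 differed by -0.68 ± 0.48, Rgmb by -0.77 ± 0.27 and Sox9 by 0.26 ± 0.37, short of the threshold. Tnfrsf19 went from a mean of 6.81 to 7.18 by its brightest probe set and from 6.92 to 5.50 by 1448147_at. Here 6 of 20 probe sets fell, against a background share of 2.12%, and 0 rose, against 1.79%. They include the second probe set of Lgr5, 1444519_at, at -1.38 ± 0.37, which lost its call without untreated replicate 2 (adjusted p = 0.267) or irradiated replicate 1 (0.386), in the fit to the compared arrays alone (0.228) and under 4 other settings (between 0.0543 and 0.11). Olfm4 and Smoc2 kept their calls without any 1 array. Lgr5 had adjusted p = 0.114 and 0.0785 without untreated replicate 1 or 2 and 0.332 without irradiated replicate 1, where its difference was -1.23. Aqp4 had 0.0605 and 0.0997 without untreated replicate 1 or 2 and 0.17 without irradiated replicate 2. The difference between fractions in the effect of irradiation was -1.68 ± 0.37 for Aqp4 (adjusted p = 0.879), -1.61 ± 0.69 for Ascl2, 1.88 ± 0.78 for Lgr5 and 1.16 ± 0.31 for Smoc2. Limma called 0 of 20 probe sets here, with 8 at an unadjusted p below 0.05, and its background share was 0%, so no marker passed the test of an unequal response between the fractions.

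**Figure D3:**
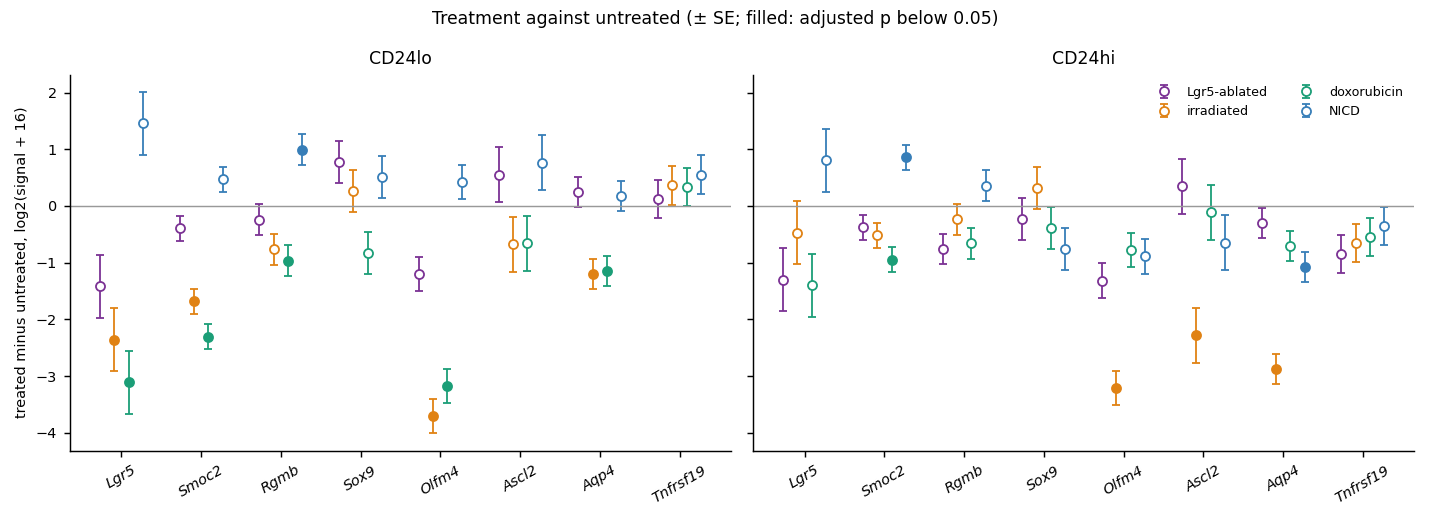
Difference from untreated cells of the same fraction for the brightest probe set of each marker under 4 treatments, in log2(signal + 16) ± SE, CD24lo left and CD24hi right. Filled points had an adjusted p below 0.05. In CD24hi cells the irradiation points of Olfm4, Ascl2 and Aqp4 lie between -3.20 and -2.28, away from those of the other genes.

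After doxorubicin 5 of the 8 genes fell in CD24lo cells and 1 in CD24hi cells, against 8.82% and 0.363% of genes, while limma called 0 of the 8 for a difference between the fractions. Lgr5 fell by 3.11 ± 0.55 (adjusted p = 0.00281) through its brightest probe set, from 8.90 and 8.44 to 6.16 and 4.96, and 1444519_at gave -0.85 ± 0.37 (adjusted p = 0.131). The end point of the Lgr5 fall was at dim signals of 55.69 and 15.1, and its size was -3.70 and -2.23 with constants of 1 and 64, both past the threshold. Olfm4 fell by 3.18 ± 0.30 (adjusted p = 3.37e-05), from 13.43 and 13.22 to 10.33 and 9.96, and Smoc2 fell by 2.31 ± 0.22 (adjusted p = 3.37e-05), from 10.60 on both arrays to 8.20 and 8.38. Through these probe sets Lgr5, Olfm4 and Smoc2 had no overlap with the untreated arrays. Aqp4 fell by 1.14 ± 0.26 and Rgmb by 0.96 ± 0.27. Sox9 fell through 1451538_at, by 1.06 ± 0.29, and its brightest probe set gave -0.83 ± 0.37 (adjusted p = 0.147). Ascl2 differed by -0.66 ± 0.48 and Tnfrsf19 by 0.34 ± 0.34. In total 10 of 20 probe sets fell, against a background share of 7.43%, and 0 rose, against 5.01%. Lgr5, Olfm4 and Smoc2 kept their calls without any 1 array, whereas Rgmb lost it without each of the 4 arrays in turn (adjusted p between 0.0696 and 0.162). Aqp4 lost it without untreated replicate 2 (0.0765) and without doxorubicin replicate 1 (0.0663) or 2 (0.0787), and Sox9 1451538_at without untreated replicate 1 (0.138) and doxorubicin replicate 1 (0.116) or 2 (0.104).

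In CD24hi cells Olfm4 measured 13.47 and 13.60 after the drug, a difference of -0.77 ± 0.30, and Ascl2 9.50 and 9.34, a difference of -0.11 ± 0.48, both short of the threshold. Lgr5 measured 9.82 and 9.81, a difference of -1.40 ± 0.55 (adjusted p = 0.345), and its second probe set gave -1.58 ± 0.37 (adjusted p = 0.0505). That probe set was called lower under 5 alternatives, with a constant of 64 (0.00936), quantile normalization (0.0252), 75th percentile centring (0.0439), no variance trend (0.0428) and the compared arrays alone (0.0106). Smoc2 fell by 0.95 ± 0.22 (adjusted p = 0.0494) and Rgmb 1428429_at by 1.09 ± 0.24 (adjusted p = 0.038), so 2 of 20 probe sets fell against a background share of 0.28%, and 0 rose, against 0.608%. Both lost their calls when any 1 of the 4 arrays was left out, Smoc2 with adjusted p between 0.216 and 0.354 and Rgmb 1428429_at between 0.112 and 0.309. The effect of doxorubicin on Olfm4 differed between the fractions by 2.41 ± 0.43 (adjusted p = 0.0583), close to the threshold, and limma called 0 of the 20 probe sets, with 4 at an unadjusted p below 0.05 and a background share of 0.00888%. Of the 7 proliferation genes 6 were lower in CD24lo cells, against 8.82% of genes, with Mcm2 at -1.77 ± 0.27, and 0 passed in CD24hi cells, where their median difference was -0.08. The difference between fractions was called for 0 of the 7, with a median of 1.31. Markers of other cells differed as well. Paneth markers summed to between 44290 and 49710 in doxorubicin CD24lo arrays, against 70400 to 81620 in untreated ones, with 5 of 8 called lower. Goblet markers in CD24hi arrays ran from 98250 to 112500, against 65450 to 84510, with 3 of 8 called higher. Over 7 of 8 T cell markers, summed signals ran from 337 to 952 in untreated and from 3385 to 3537 in doxorubicin CD24lo arrays, and in CD24hi arrays they ran from 278 to 708 and from 1734 to 1976. Enterocyte markers ran from 47380 to 55140 and from 94480 to 107200 in CD24lo arrays, and from 13500 to 17920 and from 39110 to 39890 in CD24hi arrays. Their part in the fall of the stem cell markers was not tested.

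With NICD the crypt base markers divided by sign in CD24hi cells. Smoc2 rose by 0.86 ± 0.22 (adjusted p = 0.0301), from 11.93 and 11.84 to 12.65 and 12.83. Aqp4 fell by 1.07 ± 0.26 (adjusted p = 0.0247), from 11.86 and 11.40 to 10.47 and 10.65, and its probe set 1447745_at fell by 1.59 ± 0.32 (adjusted p = 0.00751). Neither gene had overlapping arrays. Rgmb rose through 1459366_at alone, by 1.04 ± 0.27 (adjusted p = 0.0304). Lgr5 measured 12.03 and 12.02, a difference of 0.81 ± 0.55, Olfm4 differed by -0.89 ± 0.30 (adjusted p = 0.092) and Ascl2 by -0.65 ± 0.48. Ascl2 1460514_s_at went from a mean of 9.63 to 8.21. It was called lower only under alternatives, with a constant of 64 (adjusted p = 0.0376), quantile normalization (0.0378) and the compared arrays alone (0.0223). Counted over probe sets, 2 of 20 rose and 2 fell, against background shares of 3.68% and 1.71%. Without the replicate that stood apart, the adjusted p was 0.23 for Smoc2, 0.109 for Aqp4, 0.0676 for Aqp4 1447745_at and 0.0905 for Rgmb 1459366_at. Without untreated replicate 1 it was 0.104 for Smoc2, 0.192 for Aqp4 and 0.0966 for Aqp4 1447745_at. Without untreated replicate 2 it was 0.163 for Smoc2, 0.0552 for Aqp4 and 0.254 for Rgmb 1459366_at, which also lost its call without NICD replicate 1 (0.0735). In that last setting Olfm4 and Sox9 were also called, at -1.17 (adjusted p = 0.0326) and -1.44 (adjusted p = 0.0137), but the NICD group was then only the array that reads apart, and the calls over all probe sets went from 1215 to 3936. Tuft markers summed to between 10750 and 12340 in NICD and between 1252 and 1871 in untreated CD24hi arrays, and 8 enteroendocrine markers to between 56930 and 93420 and between 10940 and 12150. Their part in the marker changes was not tested.

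In CD24lo cells NICD went with higher Rgmb, which rose by 0.99 ± 0.27 (adjusted p = 0.0293), from 9.80 and 9.44 to 10.50 and 10.72, and by 1.31 ± 0.27 through 1459366_at. Lgr5 measured 10.33 and 9.94 against 8.90 and 8.44 in untreated arrays, without overlap, a difference of 1.46 ± 0.55 (adjusted p = 0.088). Ascl2 differed by 0.76 ± 0.48, Sox9 by 0.50 ± 0.37, Smoc2 by 0.47 ± 0.22 and Olfm4 by 0.42 ± 0.30, short of the threshold. Ascl2 1460514_s_at did not rise, with means of 7.64 in untreated and 7.48 in NICD arrays. Of 20 probe sets 2 rose, against a background share of 5.96%, and 0 fell, against 5.95%. The background itself rested on single arrays, with 2683 probe sets called in all but 6 without NICD replicate 2, 485 without untreated replicate 1 and 917 without untreated replicate 2. The Rgmb call was lost without untreated replicate 1 or 2 (adjusted p = 0.0609 and 0.152) and without NICD replicate 2 (0.309), and that of 1459366_at without NICD replicate 2 (0.205). Of 10 Notch genes 1 rose, the target Nrarp by 1.83 ± 0.29, and of 17 Wnt genes 2 rose, Cd44 by 1.46 ± 0.33 and Lgr4 by 1.04 ± 0.24, where 6.33% of all genes rose. Markers of other cells differed in these arrays too. T cell markers summed to between 4448 and 5805, against 337 to 952 in untreated arrays, with 3 of 7 called higher, and enteroendocrine markers to between 23680 and 24060, against 9590 to 13390, with 2 of 8 higher. Enterocyte markers summed to between 27170 and 28550, against 47380 to 55140, with 4 of 7 called lower, and goblet markers to between 86720 and 93690, against 118400 to 151500, with 3 of 8 lower. Their part in the result was not tested. The effect of NICD differed between fractions by -1.31 ± 0.43 for Olfm4 (adjusted p = 0.0834) and -1.25 ± 0.37 for Aqp4 (adjusted p = 0.0718). Limma called 0 of 20 probe sets, with 5 at an unadjusted p below 0.05, against background shares of 0.963% upward and 0.706% downward.

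Lgr5 ablation gave the smallest count of calls. Lgr5, the gene named in the ablation, measured 7.98 and 6.53 in ablated CD24lo arrays, a difference from untreated of -1.42 ± 0.55 (adjusted p = 0.588), and its second probe set gave 0.00 ± 0.37 there. In CD24hi arrays it measured 10.17 and 9.65, a difference of -1.30 ± 0.55 (adjusted p = 0.495), with -1.31 ± 0.37 (adjusted p = 0.158) by the second probe set. By the brightest probe set both ablated arrays lay below both untreated ones in each fraction, without passing the test. The share of all probe sets with that order was not counted. The brightest probe set stood at the 85.5 and 79.6 percentiles of the ablated CD24hi arrays, and the second at the 53.9 and 49.9 percentiles. Lgr5 signal was therefore still measured in cells labelled as ablated. The labels do not say whether the gene or the cells that express it were ablated. Olfm4 measured 12.79 and 13.20 in ablated CD24hi arrays, a difference of -1.31 ± 0.30 (adjusted p = 0.057), and 12.31 and 11.95 in CD24lo arrays, a difference of -1.20 ± 0.30 (adjusted p = 0.176). Ascl2, Sox9, Smoc2, Aqp4 and Tnfrsf19 differed by between -0.85 and 0.35 in CD24hi cells and between -0.39 and 0.78 in CD24lo cells. Limma called 0 of 20 probe sets in CD24lo cells, with 3 at an unadjusted p below 0.05 and background shares of 0.107% upward and 0.107% downward. The difference between fractions was called for 0 of 20, with 2 at an unadjusted p below 0.05 and a background share of 0.00444% upward and 0% downward.

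One probe set of Rgmb, 1442811_at, was the single call after ablation, 1 of 20 against a background share of 0.182% downward and with 0 upward against 0.439%. In CD24hi cells it fell by 2.19 ± 0.35 (adjusted p = 0.00363), from 10.89 and 9.99 to 8.76 and 7.73, and both ablated arrays lay below both untreated ones. The other 5 Rgmb probe sets differed by between -0.76 and -0.38 there, so the probe sets of 1 gene disagreed in size. In CD24lo cells the untreated arrays of 1442811_at read 9.04 and 8.61 and the ablated ones 7.84 and 6.90, a difference of -1.45 ± 0.35 (adjusted p = 0.148), where the other 5 gave between -0.34 and -0.01. After irradiation in CD24hi cells the same probe set gave -0.02 ± 0.35. Its call after ablation had adjusted p = 0.0841 without untreated CD24hi replicate 1 and 0.0728 in a fit to the compared arrays alone, and in CD24lo cells it was called, at -1.92 (adjusted p = 0.0415), without ablated replicate 1. Among the 18 further stem cell genes, 3 fell in ablated CD24hi cells, against 0.262% of genes. They were Gkn3, a gastrokine family gene, by 2.61 ± 0.48 (adjusted p = 0.0121), Slc14a1 by 2.53 ± 0.52 and Nrn1, a membrane-anchored neuritin, by 2.18 ± 0.38. Slc14a1 met the signal filter only through the untreated CD24hi arrays, so it is no independent support here. Nrn1 also fell in CD24lo cells, by 2.34 ± 0.38 (adjusted p = 0.0112). No proliferation gene passed in either fraction, with medians of 0.11 in CD24hi and -0.10 in CD24lo cells.

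**Figure D4:**
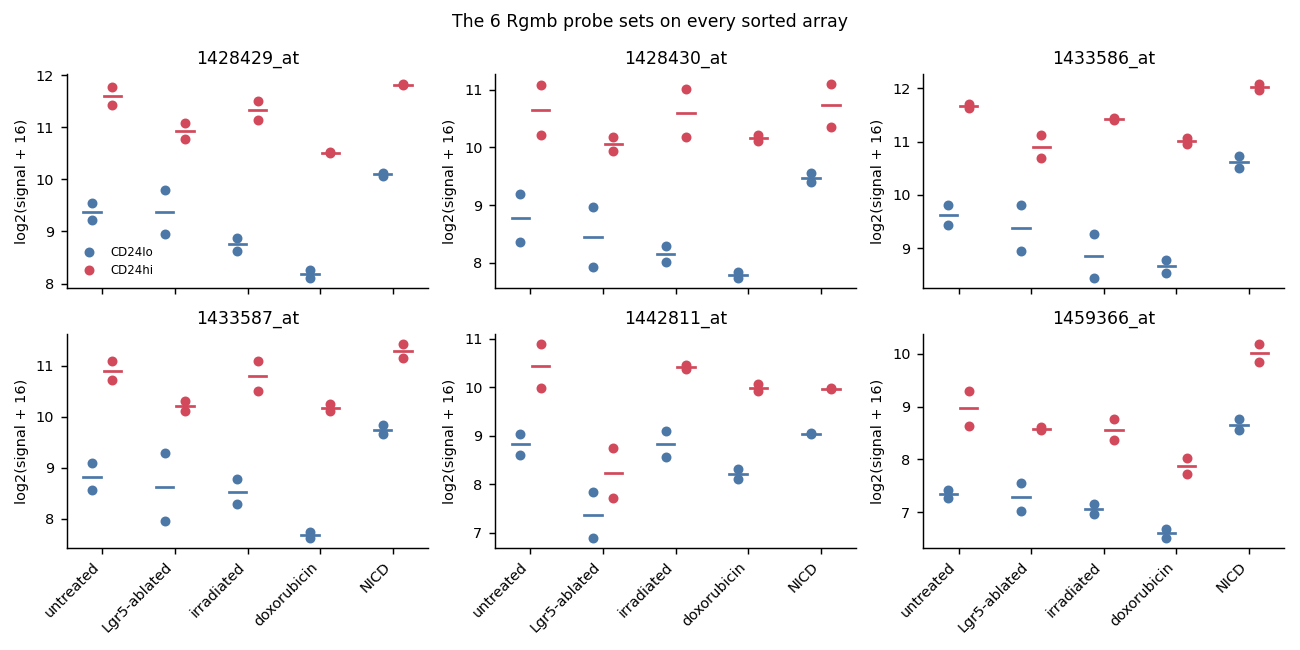
Level of the 6 Rgmb probe sets, as log2(signal + 16), on every sorted array (blue CD24lo, red CD24hi, bars are means of 2 arrays). In Lgr5-ablated CD24hi cells 1442811_at lies at 8.76 and 7.73, apart from its other CD24hi arrays, while the other probe sets stay between 8.56 and 11.12.

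The 4 treatments share the untreated arrays, so their effects are set side by side without a test between them. In CD24hi cells, Olfm4 gave -1.31 after ablation, -3.20 after irradiation, -0.77 after doxorubicin and -0.89 with NICD. Lgr5 gave -1.30, -0.47, -1.40 and 0.81 in the same order, and Ascl2 0.35, -2.28, -0.11 and -0.65. In CD24lo cells, Lgr5 gave -1.42, -2.35, -3.11 and 1.46, and Olfm4 gave -1.20, -3.71, -3.18 and 0.42. By its brightest probe set Sox9 ranged only from -0.83 to 0.78 over the 8 treated groups of both fractions. Its probe set 1451538_at lay outside that range after doxorubicin in CD24lo cells, falling from a mean of 8.74 to 7.67 and passing the test.

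Within a fraction the markers formed blocks. The following correlations of levels are descriptions over 10 arrays that share treatments, arrays and untreated controls. In CD24hi cells Lgr5 correlated with Rgmb at 0.97 and with Smoc2 at 0.89, and Olfm4, Ascl2 and Aqp4 correlated with each other at between 0.83 and 0.96. Across these blocks the values were low, with 0.11 between Lgr5 and Olfm4, -0.25 between Lgr5 and Ascl2 and -0.12 between Lgr5 and Aqp4. Sox9 correlated with the 7 others at between -0.39 and -0.11. Those with Lgr5, Rgmb and Smoc2 were negative only with NICD replicate 2, the array that reads apart. There Sox9 was 9.38 against 10.34 or more on every other CD24hi array. Over the 9 arrays without that replicate, an alternative chosen after seeing the data, Sox9 correlated with Lgr5, Rgmb and Smoc2 at 0.43, 0.36 and 0.29. With Olfm4, Aqp4 and Ascl2 it correlated more negatively than over all 10, at -0.56, -0.60 and -0.73. The other values named for CD24hi cells moved little, with Lgr5 at 0.97 with Rgmb, 0.85 with Smoc2 and 0.12 with Olfm4. In CD24lo cells the blocks merged, with Lgr5 and Olfm4 at 0.90, Smoc2 and Olfm4 at 0.94 and Lgr5 and Aqp4 at 0.65. Tnfrsf19 stayed apart in CD24lo cells, between -0.16 and 0.32.

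**Figure D5:**
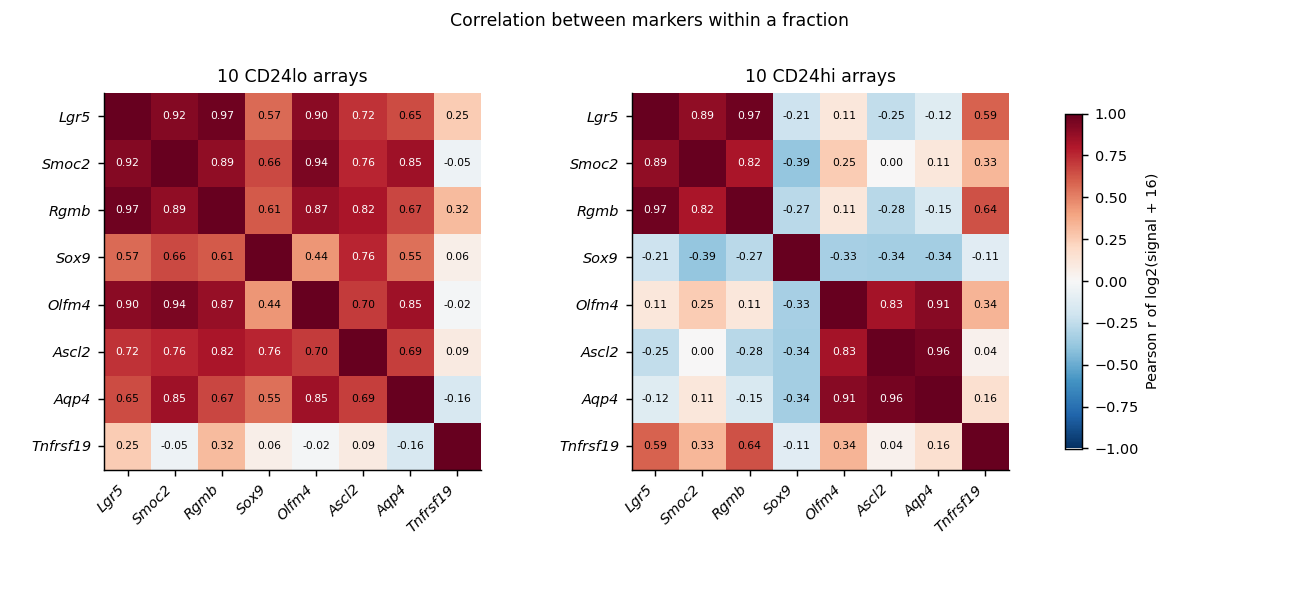
Pearson correlation of levels between the 8 markers over the 10 CD24lo arrays (left) and the 10 CD24hi arrays (right). Colour and number give r. In CD24hi cells Lgr5, Smoc2 and Rgmb form one block and Olfm4, Ascl2 and Aqp4 another, with Lgr5 and Olfm4 at 0.11, and in CD24lo cells that pair stands at 0.90.

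Over all 20 sorted arrays, the gene most like Lgr5 in level was Rgmb (r = 0.974), followed by Smoc2 (0.958) and Gga2 (0.948), an adaptor of vesicle transport. Rgmb was most like Lgr5, Gga2 (0.973) and Ephb3 (0.971), and Smoc2 most like Lgr5, Rassf4 (0.956) and Lipt2 (0.952). Olfm4 was most like Cnn3 (0.937), Myb (0.933), a transcription factor of progenitors, and Rsrc1 (0.927). Ascl2 was most like Card10 (0.963), Igfbp4 (0.932) and Htr4 (0.913). Aqp4 was most like Nrm (0.954), the helicase gene Mcm6 (0.939) and Cdca7l (0.938). Sox9 was most like Lrig1 (0.968), which restrains growth factor receptors, Trit1 (0.966) and Tent5c (0.959). Tnfrsf19 had the loosest likeness, with Cldn6 (0.852), Cd99l2 (0.85) and AI463170 (0.834). These values are maxima over 11854 genes and carry no p.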

How the data were processed

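Per the labels, RNA was extracted with an Ambion kit and amplified from 0.8 ng with the GeneChip Pico kit. The authors deposited linear intensity values per probe set, and the submitters' processing notes name MAS5. Their trimmed mean is 500 on each array. The version, detection calls and probe coordinates are not given in the sources used here, so weak signal is not separated from background. Of 45101 probe sets, 34958 had 1 gene symbol, 932 several and 9211 none in the platform annotation. 0 pairs of the 21 arrays were identical. The number of arrays, not depth, limits precision.

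Signals were taken as log2(signal + 16), which understates the change of dim genes. Single-symbol probe sets above the array median on at least 2 of 20 sorted arrays were tested (22531, of 11854 genes), and a gene is read through its brightest one. The member probe sets that missed this filter were Ascl2 1422396_s_at, Sox9 1433889_at and Tnfrsf19 1415921_a_at. Lgr5 1444519_at and Tnfrsf19 1448147_at met it only through CD24hi arrays. Of the further stem cell genes, Slc14a1 met it only through untreated CD24hi arrays. Limma 3.58.1 in R 4.3.3 was fitted with a mean per group (10 residual degrees of freedom) and a variance trend, two-sided, with Benjamini-Hochberg adjustment over all probe sets in each of 18 comparisons at 0.05. Whole intestine entered no test.

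The members, gene lists and tests were chosen with earlier results of these data known. Member probe sets entered the counts if they passed the filter, and not every value of every probe set is printed. From each list up to 4 genes past the threshold with the largest difference may be named, and for likeness the 3 genes with the highest correlation. Motifs were searched in RefSeq promoters of GRCm38.p6 with Python 3.11.15. The alternatives tried were pseudocounts of 64 and 1, dropping the filter, raising it to the 60th percentile on at least 4 arrays, arrays centred at their 75th percentile, quantile normalization, no variance trend, replicate number as a block, each array left out, and a fit to the compared arrays alone. When 1 array was left out, the lone array of its group was assumed to vary like the others.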

Additional observations from a re-analysis of the deposited data

How the results depend on the processing

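The average CD24hi difference kept all 8 genes under every alternative and every left-out array. Over single member probe sets, 5139 of 5390 alternative values kept their call, 194 lost it, 57 gained one and 0 reversed. Counts below are of the 8 genes called. A fit to the compared arrays alone gave 0 in place of 4 for the fractions after ablation, 4 in place of 1 for doxorubicin in CD24hi, 0 in place of 2 and 2 in place of 1 for NICD in CD24hi and CD24lo, 1 in place of 0 for ablation in CD24hi, 3 in place of 4 for irradiation in CD24lo (without Lgr5), and 2 in place of 0 for the difference between fractions in the doxorubicin effect. A pseudocount of 64 gave 2 for NICD in CD24lo, 1 for ablation in CD24hi (Olfm4, adjusted p = 0.044) and 1 for that doxorubicin difference (Olfm4, adjusted p = 0.0476), and the stricter filter also gave 1 there. Centring on the 75th percentile gave 1 for ablation in CD24hi (Olfm4, adjusted p = 0.0465). For doxorubicin in CD24hi a pseudocount of 1, no filter, no trend and the replicate block each gave 0 in place of 1, and no trend gave 1 for NICD in CD24hi. Olfm4 between untreated fractions lost its call under 75th percentile centring, no filter and no trend (adjusted p = 0.054, 0.0672 and 0.0751), as did Sox9 between ablated fractions under these 3, a pseudocount of 1 and quantile normalization (0.0557, 0.0719, 0.0783, 0.0539 and 0.0529) and Lgr5 between NICD fractions with a pseudocount of 1 (0.0608).

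With 1 array left out, the counts ran from 0 to 5 for the fractions after ablation (4 with all arrays), from 3 to 6 in untreated mice (8), from 3 to 4 for doxorubicin in CD24lo (5), from 2 to 3 for irradiation in CD24lo (4), from 0 to 0 for doxorubicin in CD24hi (1), from 0 to 4 for NICD in CD24hi (2), from 0 to 1 for NICD in CD24lo (1) and from 0 to 2 for the NICD difference between fractions (0). The causes were not tested, beyond the fewer arrays in each fit. Replicate numbers were not used as pairs. Over all 45 same-numbered pairs of arrays, deviations correlated between -0.38 and 0.36, 11 of them above 0.1. Most of these pairs join different conditions, so a pairing of the fractions within a condition was not tested. The replicate block fits a shift common to all groups. With it, Smoc2 after doxorubicin in CD24hi lost its call (adjusted p = 0.0641) and Sox9 between NICD fractions gained one (0.0453). Quantile normalization moved the median of all probe sets by at most -0.11, for NICD in CD24lo. In CD24lo cells, signals of Tnfrsf19 near the array median and of Lgr5 well below it after irradiation (1 array) and doxorubicin limit their differences.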
